A study of Mus musculus with 6 samples.

Results

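The 38 genes described here code for ligands, receptors, SMAD proteins, secreted inhibitors and targets of the BMP and TGF-beta pathway. They were chosen by name from a fixed list, and every gene probe of the array whose accession maps to a listed symbol was taken. This gave 49 probes out of 39429, for 38 of the 20659 gene symbols on the array. All 49 had a signal well above background in both embryos of 1 genotype or more, so none was lost to the filter on dim probes. The samples were 6 whole mouse embryos of day 12, of 3 genotypes with 2 embryos each: wild type, heterozygous and homozygous for the allele STAT3-K177K180R. By its name the allele puts arginine in place of lysine at 2 residues of STAT3, a transcription factor activated by cytokine receptors. Per the labels all genotypes were taken from the same womb. The labels are not free of contradictions: the extraction protocol speaks of tumor tissue where title, tissue and source say embryos, and the wild-type titles also carry the word mutant and the allele name. The labels give no strain, sex or number of litters, so p-values below measure the spread between these embryos only.

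Total RNA of each embryo was amplified, labelled with Cy3 and run on a 1-colour Agilent mouse array of its own. Levels are given as log2 of the processed signal minus the 75th percentile of the same array, so a level of 0 is that percentile and a difference of 1 is 2-fold. That percentile was a signal of 957 to 1176 in wild type and heterozygotes, and of 787 and 723 in homozygotes. Differences and overlaps below refer to levels after this scaling. The share of gene probes well above background lay between 75% and 77.3% in wild type and heterozygotes, and was 73.4% and 70.7% in homozygotes. The negative control probes had a median signal of 26 to 27 on the former and of 43.5 and 48 on the latter. Slides were identified by the scan date in the file headers only. By that date both homozygous arrays lay on slide 2 and the other 4 on slide 1. Slide and homozygous genotype therefore cannot be told apart, while heterozygous and wild-type embryos were compared within 1 slide. Stat3 itself, on the probe with the higher signal, was at 0.93 and 0.93 in wild type, 1.16 and 0.92 in heterozygotes and 1.51 and 1.21 in homozygotes. Its difference between homozygous and wild type was 0.44 ± 0.16 (SE), with a limma adjusted p of 0.0869, and a substitution that leaves the transcript in place gives no check of the genotype labels.

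BMPs, TGF-betas and activins are secreted dimers that bind a pair of type II and type I receptor kinases. BMP receptors phosphorylate SMAD1, SMAD5 and SMAD9, TGF-beta and activin receptors phosphorylate SMAD2 and SMAD3, and both kinds then enter the nucleus with SMAD4. SMAD6 and SMAD7 inhibit the receptors, secreted proteins such as noggin and chordin bind BMPs outside the cell, and ID genes are direct BMP targets. In midgestation embryos the pathway patterns the limbs, neural tube, heart and skeleton.

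Promoter sequence was matched to 28 of the 38 members, as 34 windows of 250 bases before the start of a transcript, from RefSeq on build GRCm38.p6. Of the 12 members that changed in homozygous embryos, 6 were matched to a window, and of these Tgfbr1, Chrd and Smad5 hold the letters GGCGCC, a GC-rich element that SMADs of the BMP branch are known to bind, and these windows are shown for that reason. Inhbb, Bmpr1b and Acvr2a had windows without a match, and Bmp2, Bmp7, Tgfb3, Smad7, Fst and Id1 were not searched. Tgfbr1 has 2 windows and Smad5 has 3, of which only the window shown holds a match, and Chrd has 1 window. The windows shown are written 5′ to 3′ on the gene's strand, with GGCGCC in capitals, and all 3 genes lie on the + strand.

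Tgfbr1, chr4:47352972-47353221: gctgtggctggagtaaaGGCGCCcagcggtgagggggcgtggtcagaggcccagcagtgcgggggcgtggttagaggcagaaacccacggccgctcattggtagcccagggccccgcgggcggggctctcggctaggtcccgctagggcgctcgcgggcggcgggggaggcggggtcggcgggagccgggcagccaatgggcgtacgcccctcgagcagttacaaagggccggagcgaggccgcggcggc
Chrd, chr16:20732877-20733126: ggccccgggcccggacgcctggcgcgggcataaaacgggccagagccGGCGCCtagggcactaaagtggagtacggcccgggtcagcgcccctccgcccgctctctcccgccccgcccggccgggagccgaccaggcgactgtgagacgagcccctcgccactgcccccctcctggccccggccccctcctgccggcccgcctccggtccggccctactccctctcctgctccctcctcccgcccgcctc
Smad5, chr13:56702802-56703051: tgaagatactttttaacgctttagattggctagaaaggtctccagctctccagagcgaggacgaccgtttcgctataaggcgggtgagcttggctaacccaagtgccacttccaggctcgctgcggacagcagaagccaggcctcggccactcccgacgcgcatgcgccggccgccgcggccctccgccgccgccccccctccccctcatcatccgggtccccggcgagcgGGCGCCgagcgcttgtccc

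The match begins 233 bases before the start in Tgfbr1, 203 in Chrd and 19 in Smad5. GGCGCC was found in 9 of the 34 member windows (26.5%) and in 9.59% of 32851 windows of the same length over all genes, and the other members with a match were Bmpr1a, Bmpr2, Grem1, Id2, Id4 and Smad9. The STAT element TTCNNNGAA was in 0 member windows and in 7.02% of all windows. The SMAD element GTCTAGAC was in 0 member windows and in 0.167% of all. Each of these motifs equals its own reverse complement, so a match covers both strands, and GGCGCC shares no letters with a match to the others in these windows. The base composition of the windows was not matched, and a match is a description of letters, not of binding.

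In homozygous embryos 12 of the 49 member probes, from 12 genes, differed from wild type (limma, adjusted p below 0.05). The ligands Bmp2 and Inhbb, the BMP-branch Smad5 and the BMP target Id1 were higher. The ligands Bmp7 and Tgfb3, the receptors Tgfbr1, Bmpr1b and Acvr2a, the inhibitory Smad7 and the secreted antagonists Chrd and Fst were lower. Smad7 and Tgfbr1 were the only members that moved by 2-fold or more. The 4 higher and 8 lower probes made up 24.5% of the member probes, while 27.9% of all 29909 probes tested passed in this comparison, 13.6% higher and 14.3% lower. The share of members that passed was thus close to that of the whole array. The median difference over the 49 member probes was -0.13, and over all probes 0.08. Embryos of both genotypes did not overlap in 37 member probes (75.5%), against 68.8% of all probes. By branch, 2 of 20 BMP probes rose and 3 fell, and 1 of 18 TGF-beta and activin probes rose and 3 fell. The other 11 probes, grouped as shared or target genes with Id1, Smad7 and Acvr2a among them, had 1 higher and 2 lower. In whole embryos, fewer cells of a type and less RNA per cell cannot be told apart.

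**Figure D1:**
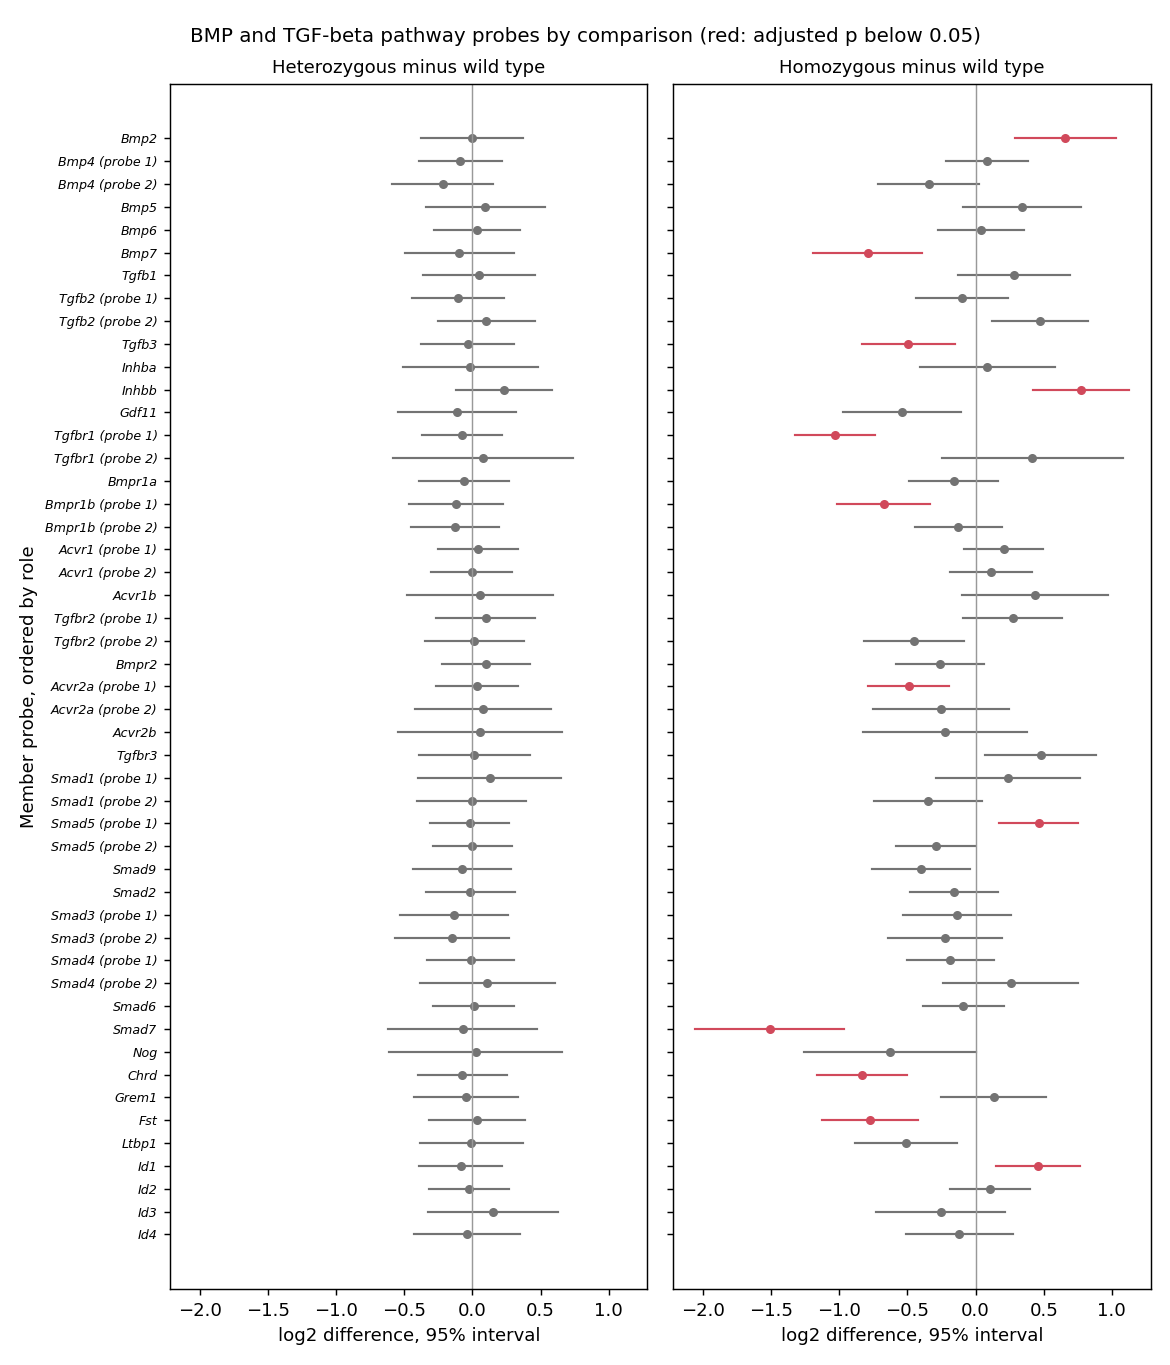
Difference in log2 level (dots) with its 95% interval (lines) for each of the 49 member probes, ordered by role, heterozygous minus wild type on the left and homozygous minus wild type on the right, 2 embryos per genotype. Red marks an adjusted p below 0.05. The left panel has no red dot, and the right panel has 12, from -1.51 for Smad7 to 0.77 for Inhbb.

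Among the ligands, 2 of 13 probes rose and 2 fell (30.8%, against 27.9% of all probes). Bmp7, a BMP needed for kidney and eye development, was at 0.80 and 0.82 in wild type, 0.85 and 0.58 in heterozygotes and 0.17 and -0.13 in homozygotes. Both homozygous embryos lay below the other 4, a difference from wild type of -0.79 ± 0.17 (SE), which is 1.73-fold lower (adjusted p = 0.0175). Bmp2, a BMP of heart and bone formation, went the other way. It was at -2.31 and -2.45 in wild type, -2.23 and -2.54 in heterozygotes and -1.68 and -1.76 in homozygotes. This was 1.58-fold higher than wild type (0.66 ± 0.15, adjusted p = 0.0248), with no overlap with the other genotypes. Before scaling the Bmp2 signals did overlap, at 238 and 203 in heterozygotes and 245 and 214 in homozygotes. Unscaled signals of Inhbb and Id1 also overlapped between these genotypes. Those of the brighter Smad5 probe were lower in homozygotes than in heterozygotes. Against heterozygous embryos the differences were -0.70 for Bmp7 (adjusted p = 0.0299) and 0.66 for Bmp2 (adjusted p = 0.0281).

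Bmp4, a BMP with broad roles in mesoderm and limb, has 2 probes. On the first it was at 2.26 and 2.33 in wild type, 2.26 and 2.15 in heterozygotes and 2.34 and 2.41 in homozygotes, a difference of 0.08 ± 0.13 (adjusted p = 0.636). Its second probe was not well above background on any homozygous array, so no fold is given for it. Bmp5 (0.34, adjusted p = 0.198) and Bmp6 (0.04, adjusted p = 0.848) did not pass either.

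Of the 3 TGF-betas, Tgfb3, which acts in palate closure, fell. Its level was 1.83 and 1.86 in wild type, 1.91 and 1.71 in heterozygotes and 1.44 and 1.26 in homozygotes. The homozygous embryos were the lowest of the 6, by 0.49 ± 0.14 from wild type, or 1.41-fold (adjusted p = 0.0440). Against heterozygous embryos Tgfb3 did not pass (-0.46, adjusted p = 0.0601). Tgfb1 differed by 0.28 (adjusted p = 0.255), and its embryos overlapped. The probes of Tgfb2 gave -0.10 and 0.47 (adjusted p = 0.617 and 0.0564).

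Inhbb, which codes for the beta B subunit of activin B and inhibin B, rose. Before scaling its heterozygous signals (279 and 306) and homozygous signals (299 and 263) overlapped. After scaling it was at -2.35 and -2.06 in wild type, -2.0 and -1.94 in heterozygotes and -1.39 and -1.46 in homozygotes. The difference from wild type was 0.77 ± 0.15, or 1.71-fold higher (adjusted p = 0.0128), and from heterozygous 0.54 (adjusted p = 0.0420). The latter call was kept in 7 of 16 settings, the fewest of any member, and was lost with any of the 6 embryos left out. The heterozygous embryos also lay above both wild-type embryos, by 0.23 ± 0.15, with an unadjusted p of 0.160. Inhba, for the beta A subunit, differed by 0.09 with overlapping embryos, and Gdf11, a ligand of axial patterning, by -0.54 (adjusted p = 0.0669). The calls of all 4 ligands were lost without either wild-type embryo, with adjusted p values from 0.05004 for Inhbb to 0.219 for Tgfb3. Tgfb3 also missed the threshold without homozygous embryo 2 and without either heterozygous embryo. An embryo of the genotype not compared enters a comparison only through the shared estimate of the spread. Leaving it out does not change the difference itself.

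**Figure D2:**
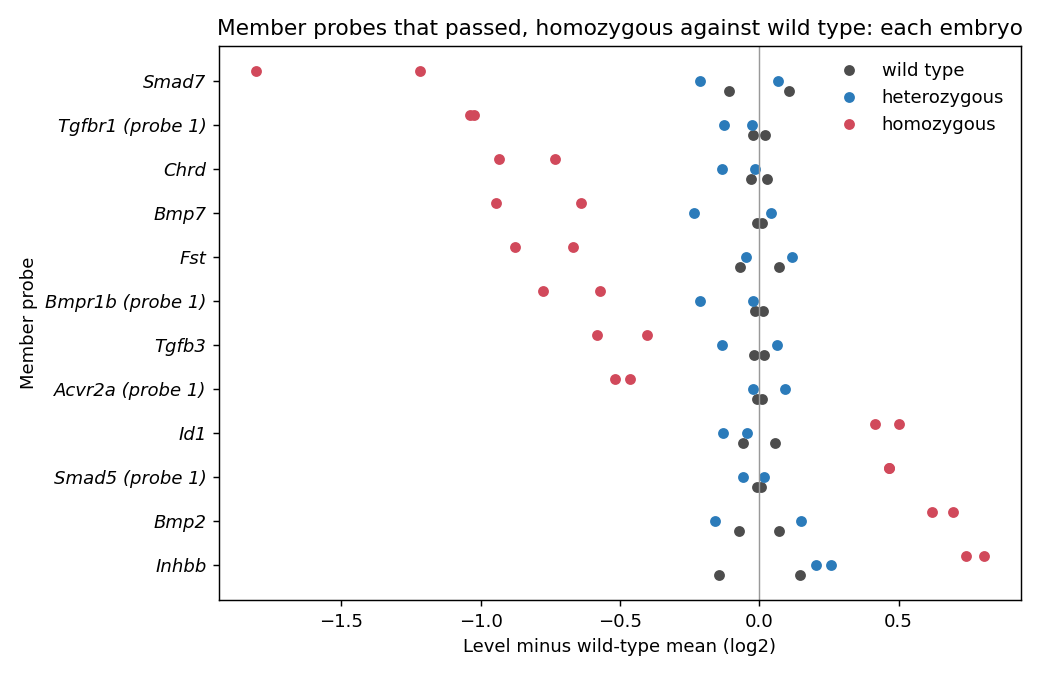
Log2 level of each embryo minus the wild-type mean, for the 12 member probes that passed in the homozygous against wild type comparison, 1 dot per embryo coloured by genotype. In each of the 12 rows both homozygous dots lie outside the other 4, and the heterozygous dots stay within 0.3 of the wild-type mean.

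Of 15 probes for receptors and the co-receptor Tgfbr3, 3 fell and 0 rose (20%, against 27.9% of all probes). Tgfbr1, the type I receptor of TGF-beta, had the call that was kept in the most settings among the members. Its brighter probe read 3.09 and 3.04 in wild type, 3.04 and 2.94 in heterozygotes and 2.03 and 2.04 in homozygotes. Both homozygous embryos were about a log2 unit below the rest, a difference of -1.03 ± 0.12, or 2.04-fold lower than wild type (adjusted p = 0.0031). Against heterozygous embryos it was -0.96 (adjusted p = 0.0046). This call held in all 16 alternative settings tried in both comparisons, the range of the difference from wild type being -1.06 to -0.94. The second Tgfbr1 probe did not fall: it read -3.26 and -3.46 in wild type, -3.54 and -3.01 in heterozygotes and -3.28 and -2.60 in homozygotes. Its difference was 0.42 ± 0.27 (adjusted p = 0.288), and its embryos overlapped.

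Bmpr1b, a BMP type I receptor of cartilage and limb, was at -1.62 and -1.65 in wild type, -1.84 and -1.65 in heterozygotes and -2.41 and -2.20 in homozygotes on its brighter probe. It was 1.60-fold lower than wild type (-0.67 ± 0.14, adjusted p = 0.0182) and differed by -0.56 from heterozygous (adjusted p = 0.0371). Under another background correction, normexp with the 75th percentile (called normexp below), these shrank to -0.36 and to -0.27, the latter with an adjusted p of 0.0911. The call against heterozygous embryos was kept in 8 of 16 settings. The homozygous embryos lay below all others, while the second probe differed by -0.12 (adjusted p = 0.505). Acvr2a, a type II receptor for activins and BMPs, was at 0.67 and 0.65 in wild type, 0.64 and 0.75 in heterozygotes and 0.20 and 0.14 in homozygotes. It was 1.41-fold lower (-0.49 ± 0.12, adjusted p = 0.0312), and -0.52 against heterozygous (adjusted p = 0.0294). Its second probe differed by -0.25 (adjusted p = 0.385) with overlapping embryos. Without either wild-type embryo the calls of Bmpr1b (adjusted p = 0.119 and 0.116) and Acvr2a (0.178 and 0.173) were lost. Acvr2a also missed the threshold without homozygous embryo 2 and, at an unchanged difference, without either heterozygous embryo.

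The remaining receptors did not pass. Acvr2b, another type II receptor, was at 3.77 and 3.91 in wild type, 4.21 and 3.58 in heterozygotes and 3.84 and 3.39 in homozygotes. These ranges overlapped, and the heterozygous embryos alone were 0.63 apart. Tgfbr3, also called betaglycan, which presents TGF-beta to its receptors, was at 0.51 and 0.46 in wild type, 0.53 and 0.47 in heterozygotes and 0.75 and 1.17 in homozygotes. The homozygous embryos were the highest, by 0.48 ± 0.17 over wild type (adjusted p = 0.0803). Tgfbr2, the type II receptor of TGF-beta, differed by 0.27 and -0.45 on its probes (adjusted p = 0.213 and 0.0682). The BMP receptors Bmpr1a (-0.16), Bmpr2 (-0.26) and Acvr1 (0.21 and 0.11) and the activin receptor Acvr1b (0.44) had adjusted p values of 0.182 and above.

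Among 12 SMAD probes, 1 rose and 1 fell. Smad7, the inhibitory SMAD that targets TGF-beta and BMP receptors, moved the most of all members. Its level was 1.08 and 1.29 in wild type, 1.25 and 0.97 in heterozygotes and -0.03 and -0.62 in homozygotes. Both homozygous embryos were below every other embryo, although 0.59 apart from each other. The difference was -1.51 ± 0.23, or 2.85-fold lower than wild type (adjusted p = 0.0064), and -1.44 from heterozygous (adjusted p = 0.0089). Its call was lost only without wild-type embryo 2 (-1.40, adjusted p = 0.0549) in the comparison with wild type, and only without heterozygous embryo 1 (-1.30, adjusted p = 0.0649) in the comparison with heterozygous embryos. Smad6, the other inhibitory SMAD, which acts mainly on BMP signals, read -0.48 and -0.41 in wild type, -0.40 and -0.47 in heterozygotes and -0.57 and -0.50 in homozygotes. Its difference was -0.09 ± 0.12, with an interval from -0.39 to 0.21.

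Smad5, a receptor-activated SMAD of the BMP branch, rose on its brighter probe. This probe read 2.36 and 2.37 in wild type, 2.38 and 2.31 in heterozygotes and 2.83 and 2.83 in homozygotes. After scaling the homozygous pair stood above wild type by 0.46 ± 0.12, or 1.38-fold (adjusted p = 0.0333), and by 0.49 above heterozygous (adjusted p = 0.0338). Its unscaled signals were 4921 and 5108 in wild type, 5802 and 5838 in heterozygotes and 5607 and 5149 in homozygotes. The second probe went the other way, at -1.38 and -1.41 in wild type, -1.43 and -1.37 in heterozygotes and -1.70 and -1.67 in homozygotes. That difference was -0.29 ± 0.12 (adjusted p = 0.116). The Smad5 call was lost without either wild-type embryo and, at an unchanged difference, without either heterozygous embryo.

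The other SMADs did not pass. Smad1 differed by 0.24 and -0.35 on its probes, and Smad9, the third BMP-branch SMAD, by -0.40 (adjusted p = 0.0908). Smad2 differed by -0.16 (adjusted p = 0.404). Smad3, which mediates TGF-beta and activin signals, was at 2.08 and 2.22 in wild type, 2.05 and 1.98 in heterozygotes and 2.20 and 1.83 in homozygotes on its brighter probe, and these overlapped. Smad4, the partner of all activated SMADs, was at 2.86 and 2.83, at 2.92 and 2.74, and at 2.71 and 2.61 in the same order on its brighter probe (-0.18 ± 0.13, adjusted p = 0.325).

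Of 4 secreted antagonists, 2 fell and 0 rose (50%, against 27.9% of all probes, a share from only 4 probes). Chrd codes for chordin, which binds BMPs, and was at -2.49 and -2.54 in wild type, -2.53 and -2.65 in heterozygotes and -3.45 and -3.25 in homozygotes. The homozygous embryos were the lowest, 1.78-fold below wild type (-0.83 ± 0.14, adjusted p = 0.0084) and -0.76 from heterozygous (adjusted p = 0.0131). Under normexp the differences were -0.47 and -0.33, the latter with an adjusted p of 0.0542. Fst codes for follistatin, which binds activins and some BMPs, and was at 1.38 and 1.52 in wild type, 1.57 and 1.40 in heterozygotes and 0.78 and 0.58 in homozygotes. It was 1.71-fold lower than wild type (-0.77 ± 0.15, adjusted p = 0.0129) and -0.81 from heterozygous (adjusted p = 0.0133), with no overlap. Both calls against wild type were lost without wild-type embryo 1 (adjusted p = 0.0726 for Chrd, 0.0704 for Fst) or 2 (0.0686 and 0.110).

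Nog codes for noggin, another BMP antagonist, and its homozygous embryos were 0.72 apart. They read -3.56 and -2.84, against -2.78 and -2.38 in wild type and -2.48 and -2.62 in heterozygotes. The difference of -0.63 ± 0.26 did not pass (adjusted p = 0.120), and its size rested on homozygous embryo 1: without embryo 2 it was -0.99 (adjusted p = 0.0163), and without embryo 1 it was -0.27 (adjusted p = 0.325). Grem1, a BMP antagonist of the limb bud, differed by 0.13 with overlapping embryos. Ltbp1, which holds latent TGF-beta in the matrix, was at 2.13 and 2.01 in wild type, 2.22 and 1.90 in heterozygotes and 1.62 and 1.5 in homozygotes. The homozygous embryos were below the rest by 0.51 ± 0.16, just outside the threshold (adjusted p = 0.0536). Ltbp1 passed in 6 of 16 alternative settings, among them the authors' deposited table (-0.55, adjusted p = 0.0385) and normexp (-0.55, adjusted p = 0.0170).

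Of the 4 ID genes, which code for inhibitors of basic helix-loop-helix factors, only Id1 rose and 0 fell (25%, against 27.9% of all probes). Unscaled Id1 signals overlapped, at 12176 and 13578 in wild type, 14266 and 14245 in heterozygotes and 14748 and 12765 in homozygotes. After scaling Id1 was at 3.67 and 3.78 in wild type, 3.68 and 3.60 in heterozygotes and 4.23 and 4.14 in homozygotes. The homozygous embryos were the highest, 1.37-fold above wild type (0.46 ± 0.13, adjusted p = 0.0409) and 0.55 above heterozygous (adjusted p = 0.0286). This was the least stable of the 12 calls, kept in 8 of 16 alternative settings. It was lost without either wild-type embryo, without homozygous embryo 1 and, at an unchanged difference, without either heterozygous embryo. Id2 (0.11), Id3 (-0.26) and Id4 (-0.12) had adjusted p values from 0.359 to 0.609. Whether Id1 differed from the other ID genes was not tested.

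In heterozygous embryos 0 of 49 member probes differed from wild type by limma, and 0 of 49 had an unadjusted p below 0.05. Of all 29908 probes tested, 0% passed, and 615 had an unadjusted p below 0.05. Member differences ran from -0.22 to 0.23 with a median of -0.01, and 8 of 49 probes (16.3%) had embryos that did not overlap, against 27.1% of all probes. For 33 probes the 95% interval lay within 0.5 log2 units of 0, and the widest interval, that of the second Tgfbr1 probe, ran from -0.58 to 0.74. The intervals of Smad7 (-0.62 to 0.48) and Tgfbr1 (-0.37 to 0.22 on the brighter probe) did not include the differences these genes showed in homozygous embryos. No member had a call in this comparison under any of the 16 settings.

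Homozygous embryos differed from heterozygous ones in 11 of 49 member probes (22.4%), 4 higher and 7 lower, while 23.3% of all probes passed, 10.8% higher and 12.5% lower. These are the 12 members named above without Tgfb3. Homozygous embryos are shared between this comparison and the one with wild type, so they are not independent. Wild-type embryos enter the comparison with heterozygous embryos only through the shared estimate of the spread. Embryos did not overlap in 31 member probes (63.3%), against 63.6% of all probes. The count of 11 fell to 1 without heterozygous embryo 1, to 3 without heterozygous embryo 2, and to 4 without either wild-type embryo. The count of 12 against wild type fell to 2 (Tgfbr1 and Smad7) without wild-type embryo 1, and to 1 (Tgfbr1) without wild-type embryo 2, and over all probes from 8346 to 2418 and 2008.

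**Figure D3:**
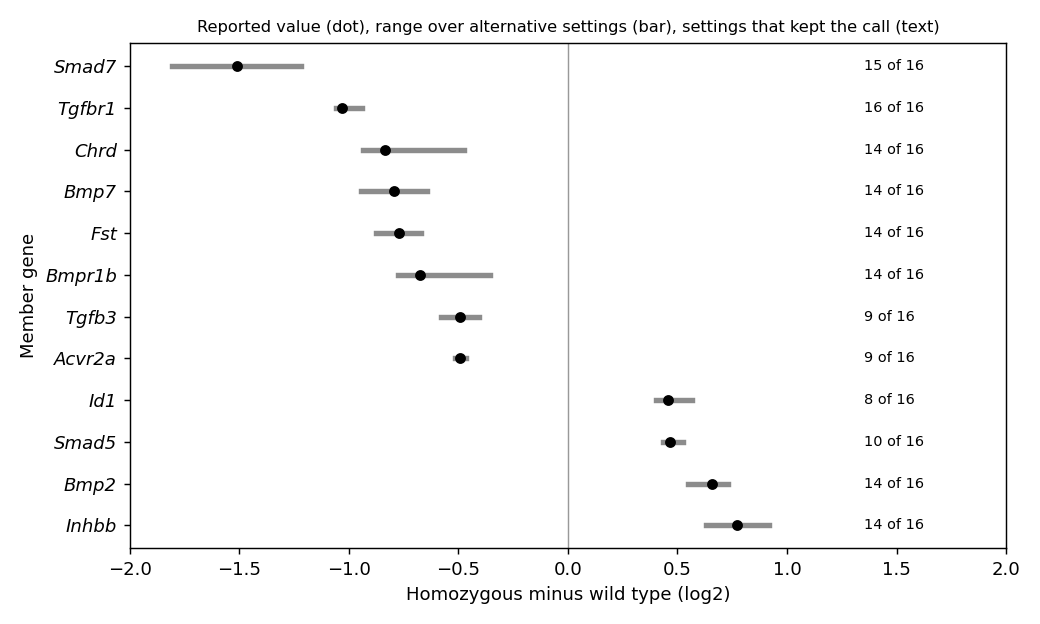
Homozygous minus wild type log2 difference (dot) of the 12 member probes that passed, with the range over 16 alternative settings (bar), and the number of settings in which the call was kept (text). No bar crosses 0, and the text runs from 8 of 16 for Id1 to 16 of 16 for Tgfbr1.

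In the member probes the embryos of a genotype were not equally alike. The same distances over all probes are not given here. The median distance between both embryos over the 49 member probes was 0.08 in wild type, 0.16 in heterozygous and 0.20 in homozygous, and it exceeded 0.3 in 2, 8 and 17 probes. Nog was the farthest apart in wild type (0.40) and in homozygous (0.72), and Acvr2b in heterozygous (0.63).

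The array has 2 probes for 11 of the members and 1 for the other 27. Between homozygous and wild type the probes of 7 genes had opposite signs and those of 4 the same sign. The 7 include Bmp4, whose dimmer probe was not well above background on any homozygous array and turned to 0.33 under normexp. The 4 include Bmpr1b and Smad3, whose dimmer probes turned to 0.017 and 0.22 under normexp. The share of opposite signs over all genes with several probes was not counted. In 4 genes the brighter probe alone passed, and in 0 genes both. A test of the difference between the probes within each array passed for 4 of 11 member genes, and for 34% of 5336 such pairs on the array. The brighter probe exceeded the other by 0.76 ± 0.13 more in homozygous than in wild-type embryos for Smad5 (adjusted p = 0.0092) and by 0.73 ± 0.14 for Tgfbr2 (adjusted p = 0.0131). For Tgfbr1 this difference of differences was -1.45 ± 0.30 (adjusted p = 0.0173) and for Tgfb2 -0.57 ± 0.17 (adjusted p = 0.0464). With the processing used here the probes of these genes changed unequally, so a single value per gene would depend on the probe chosen. Over the alternative settings the dimmer Tgfbr2 probe's difference from wild type ran from -0.60 to -0.04. The dimmer probes ran from -0.31 to -0.17 for Smad5, from 0.08 to 0.76 for Tgfbr1 and from 0.38 to 0.56 for Tgfb2. For Bmpr1b (-0.55, adjusted p = 0.0650) and Acvr2a (-0.24, adjusted p = 0.433) the test did not pass. Against heterozygous embryos, 3 of 11 passed (30.2% of all pairs), and between heterozygous and wild type 0 of 11 (0% of all pairs). Without either wild-type embryo 0 of the 11 passed against wild type, the smallest adjusted p among the 4 being 0.0606, for Tgfbr2. Which transcripts the probes of a gene match was not analysed here.

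**Figure D4:**
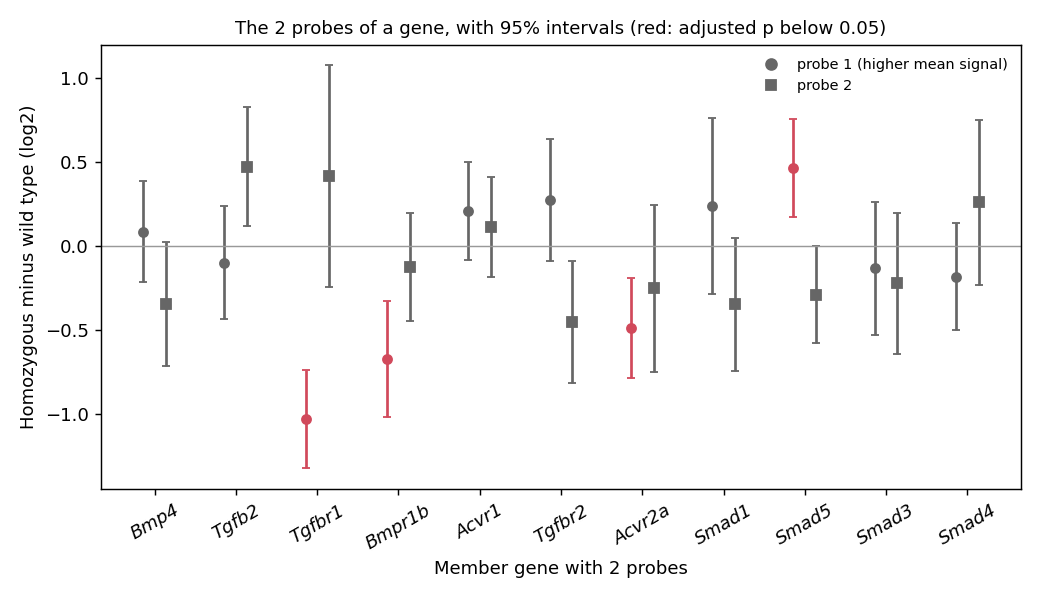
Homozygous minus wild type log2 difference with its 95% interval for both probes of the 11 member genes with 2 probes, the brighter as a circle and the other as a square. Red marks an adjusted p below 0.05, which Tgfbr1, Bmpr1b, Acvr2a and Smad5 reached on the brighter probe.

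A further list of 76 symbols gave other genes of the same pathway, of which 70 genes with 93 probes were tested. In homozygous against wild-type embryos 12 of the 93 rose and 12 fell (25.8%, against 27.9% of all probes), with a median of 0.10. Of the ligands, Inhbe, an activin beta subunit, rose by 1.60 (adjusted p = 0.0026) and Lefty2, a Nodal inhibitor, by 1.06 (adjusted p = 0.0071). Under normexp with quantile normalization these passed at 0.40 for Inhbe and 0.31 for Lefty2. Tgif1, a corepressor of SMADs, rose by 0.90 (adjusted p = 0.0061) and Fstl1, a follistatin-like secreted protein, by 0.68 (adjusted p = 0.0128). Of these calls only that of Inhbe held without either wild-type embryo, and that of Lefty2 was lost without embryo 2 alone (adjusted p = 0.0572). Wwp1, a ubiquitin ligase, was well above background on 1 of 2 homozygous arrays. It differed by -1.89 (adjusted p = 0.0018), but by 0.54 on its other probe (adjusted p = 0.120), and by -0.29 under normexp (adjusted p = 0.0909).

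Gdf7, a BMP-type ligand of the dorsal neural tube, was not well above background in homozygous embryos and entered the fit through the other genotypes, so its lower level there is a bound only, at least 1.85-fold (adjusted p = 0.0034). The difference turned to 0.042 under normexp and was 0.05 on its other probe. Dand5, a Nodal antagonist, fell by 1.13 (adjusted p = 0.0122), and under normexp it passed at -0.44. Gdf5, a ligand of joint formation, fell by 0.95 on one probe (adjusted p = 0.0149), its other probe differing by -0.17. Both calls were lost without wild-type embryo 1 (adjusted p = 0.0667 for Dand5, 0.103 for Gdf5) or 2 (0.0886 and 0.0729). Under normexp the same counts were 25 higher and 7 lower, without wild-type embryo 1 they were 3 and 2, and without wild-type embryo 2 they were 1 and 2. Without homozygous embryo 1, 24 rose.

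Against heterozygous embryos 10 of the 93 rose and 8 fell (19.4%, against 23.3% of all probes), and between heterozygous and wild type 0 changed by limma, with 4 at an unadjusted p below 0.05. Inhbe (1.14), Tgif1 (0.83), Lefty2 (0.87) and Fstl1 (0.65) were again higher in homozygous embryos. Under normexp with quantile normalization the calls of Inhbe (0.33, adjusted p = 0.0567) and Lefty2 (0.25, adjusted p = 0.0568) were lost, and that of Fstl1 was kept in 11 of 16 settings. Wwp1 differed by -2.01, and under normexp by -0.30 (adjusted p = 0.0676). Gdf7 was lower by at least 1.84-fold, a difference that turned to 0.16 under normexp. Tll1, a protease that cleaves chordin, differed by -0.84 (adjusted p = 0.0143), by 0.52 on its other probe, and by -0.25 under normexp (adjusted p = 0.120). Rgmb, a BMP co-receptor, differed by -2.03 (adjusted p = 0.0149), with homozygous embryos at -1.83 and -3.10, and did not pass without either heterozygous embryo (adjusted p = 0.0892 and 0.0646). Without heterozygous embryo 1, Inhbe, Tgif1, Lefty2, Fstl1 and Tll1 did not pass either, and without embryo 2, Inhbe, Lefty2 and Fstl1 did not. Without heterozygous embryo 1 the counts were 0 higher and 2 lower, without embryo 2 they were 1 and 3, and under normexp 29 and 5.

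Marker probes of several tissues were also compared between homozygous and wild type. Over all probes 13.6% passed as higher and 14.3% as lower in this comparison, and each marker list holds few probes. All 5 markers each of neural, skeletal muscle, cartilage, erythroid, hepatoblast and limb mesenchyme cells were well above background in every genotype. Limb mesenchyme markers summed to 11.9 to 12.9 in wild type (linear signal over the 75th percentile), 11.1 to 11.3 in heterozygotes and 6.21 to 7.21 in homozygotes, and 3 of 6 probes fell. Those were Twist1 (-1.22), Shox2 (-1.10) and 1 probe of Prrx1 (-1.71), while the other Prrx1 probe (-0.05), Hand2 (0.02) and Tbx5 (0.26) did not pass. Hepatoblast markers summed to 113 to 124, 106 to 122 and 171 to 178, and 2 of 7 probes rose. Cartilage summed to 49.4 to 57.8, 54.2 to 68.4 and 65.2 to 71.8, with 1 of 6 probes higher, and skeletal muscle to 64.9 to 70.9, 69.8 to 84.2 and 91.6 to 92.5, with 2 of 6 higher. Neural markers summed to 24.1 to 25.1, 22.5 to 26.4 and 25.9 to 30.7, and erythroid markers to 120 to 134, 97.0 to 111 and 144 to 148, and 0 of 7 and 0 of 5 probes passed. Endothelial markers summed to 12.5 to 12.7, 12.3 to 13.0 and 12.0 to 12.8, with 1 of 6 probes lower. Macrophage markers summed to 7.61 to 7.89, 7.88 to 8.63 and 7.93 to 9.51, with 1 of 8 lower. Of 4 maternal decidua genes 2 were well above background, and 0 of 2 probes tested passed. Of the trophoblast list, which checks for attached placenta, 4 of 6 genes were well above background, and Tpbpa and Ctsq on no array. Its sum was 102 to 115, 78.3 to 114 and 12.3 to 28.1, carried by Gcm1. Of its 6 probes tested, 3 of Gcm1 and 1 of Psg17 fell, 1 of Prl3d1 rose (0.77, adjusted p = 0.0346), and Prl3b1 differed by 0.53 (adjusted p = 0.0754). The part of these tissue markers in the differences of the ligands, receptors, SMADs and antagonists was not tested.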

How the data were processed

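The deposited intensity values came from Agilent Feature Extraction 11.0.1.1, per the file headers, which subtracted background and spatial trends on each array and did not normalize arrays to each other. A log2 table deposited by the authors has equal distributions in all arrays (median 6.73), made by a method not given in the sources used here. Control spots (1377) and outlier spots were left out, spots of a probe were averaged, and log2 processed signal minus the 75th percentile of the array was used. The filter kept 29910 probes, those well above background in both embryos of any genotype. Accessions were named through a RefSeq table of GRCm38.p6, which named 27234 probes; the array was annotated to mm9. One linear model of genotype over all 6 arrays was fitted with limma 3.58.1 in R 4.3.3 (3 residual and 3.35 prior degrees of freedom), with Benjamini-Hochberg adjustment over all kept probes within a comparison. Differences between the probes of a gene were fitted in the same way. The fit was tested on simulated data.

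The members and the lists were chosen with earlier results of these data known. By rule, each member is named, values of every embryo are given for Stat3 and members with a passing probe, other members have values where their probe is the brightest of its role, and up to 4 other pathway genes are named per direction and comparison. Beyond that rule, the values of Nog and Smad6, members near the threshold, and second probes were chosen for mention with their values known. Spot signal and local background medians, also intensity values per the file headers, served the normexp alternative (offset 50), since the files used hold no mean signal. The replicate numbers in the titles did not pair the embryos. Other alternatives were quantile and median scaling, the authors' log2 table, no filter or a stricter one, 1 probe per gene, an intensity trend, 4 arrays per fit, and each embryo left out.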

Additional observations from a re-analysis of the deposited data

How the results depend on the processing

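Over 16 alternative settings, the 12 member calls between homozygous and wild type were kept in 151 of 192 cases and lost in 41, and the 11 calls against heterozygous embryos in 123 of 176 and 53, and 0 turned direction. The fit with only the genotypes compared and the fits without either embryo of the third genotype are the same fit. Its outcome is therefore counted more than once in these cases. The 4 probes higher than in wild type became 7 under normexp with the 75th percentile, 2 without a filter and 2 with only the genotypes compared, and 0 to 7 with an embryo left out, when the 8 lower probes became 1 to 9. Against heterozygous embryos the 4 higher became 8, 0 and 0, and 0 to 5 with an embryo left out. The 7 lower became 4 without a filter, 4 with only the genotypes compared, and 1 to 9 with an embryo left out. Unequal probes numbered 0 to 6 against wild type and 0 to 5 against heterozygous embryos with an embryo left out, an alternative chosen after seeing the data. Under normexp with the 75th percentile the median of all probes moved from 0.08 to 0.20 (against heterozygous, 0.09 to 0.26), and the share of all calls that were higher from 48.8% to 69.7% (46.2% to 77.8%).

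Among probes that did not pass, some turned sign. Under normexp with the 75th percentile the differences from wild type became 0.22 (Smad3, dimmer probe), -0.011 (Id2), 0.33 (Bmp4, dimmer probe) and 0.017 (Bmpr1b, dimmer probe), and Gdf7, which had passed, 0.042 and against heterozygous 0.16. Under normexp with quantiles they became -0.041 (Id2) and -0.017 (Bmp6). Leaving out an embryo gave ranges of -0.21 to 0.38 (Inhba), -0.031 to 0.11 (Bmp6), -0.27 to 0.032 (Id4), -0.012 to 0.28 (Grem1), -0.032 to 0.51 (Smad1, brighter probe), -0.52 to 0.011 (Acvr2a, dimmer probe), -0.32 to 0.053 (Smad3, brighter probe), -0.028 to 0.55 (Smad4, dimmer probe), -0.23 to 0.028 (Tgfb2, brighter probe) and -0.36 to 0.94 (Stat3, dimmer probe). The cause was not tested. With the replicate number as a block, 3 member probes were higher and 9 lower than wild type, Id1 missing the threshold (adjusted p = 0.0556) and Ltbp1 passing it (0.0432), and 3 and 7 against heterozygous embryos, Inhbb missing it (adjusted p = 0.0530). Same-numbered embryos correlated at -0.0017 (wild type and heterozygous), -0.16 (wild type and homozygous) and 0.29 (heterozygous and homozygous) in their deviations, so the numbers were not taken as pairs. The number of arrays, 2 per genotype, and the higher background of the homozygous arrays limit the precision for dim probes. For some dim probes, such as those of Gdf7 and the dimmer Bmp4 probe, the size and sign of the difference also changed with the background correction.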
